A study of Zea mays with 56 samples.

Results

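Between 15 and 25 Mb of chromosome 4, 187 genes of the maize inbred W22 were annotated, and 118 of them reached 0.5 FPKM (fragments per kilobase of gene, scaled for library depth, so a level per length) in at least 2 leaf libraries. These 118 genes, out of 41064 genes in the deposited table, are described here. The stretch was chosen on measured values, because 3 of its genes, Zm00004b020529, Zm00004b020593 and Zm00004b020638, switch between plants with and without B chromosomes, so every carrier against control value is a description of these members, with no test. The plants carried 1 (1B, n = 4), 2 (2B, n = 4), 3 (3B, n = 4), 4 (4B, n = 4), 5 (5B, n = 2), 6 (6B, n = 3) or 7 (7B, n = 3) B chromosomes, against 4 W22 control plants without them. All 28 plants gave leaf tissue after 45 days in a greenhouse, and copy number had been scored by fluorescence in situ hybridization at the seedling stage. The study asked how expression differs with the presence and the number of B chromosomes.

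B chromosomes are dispensable extra chromosomes that some maize plants carry beside the regular A chromosomes. They do not pair with A chromosomes at meiosis, vary in number between plants, and at low number have little visible effect on the plant, whereas high numbers reduce vigour and fertility. Chromosome 4 is an A chromosome. Whether every plant carries each gene of the stretch was not tested. Neither the deposited tables nor the gene table used here pair the identifiers with names or functions, so genes are given by position, with an identifier for few of them. Coordinates are those of the authors' deposited table, whose genome build is not given in the sources used here.

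All control plants carry plant codes of another series than all carriers, so plant source and B presence cannot be told apart. The leaf is a bulk sample, in which fewer cells of a type and less RNA per cell cannot be told apart either. The gene table holds FPKM and no read totals, so depth in reads is unknown. Relative depth, read from the step of single reads in low genes, lay between -0.94 and 0 on the log2 scale against Control replicate 1, and spike-in totals ran from 427551 to 1634328 counts. Between 20483 and 21144 genes reached 0.5 FPKM in a library. How reads that match several places were counted is not given, so reads of a near-identical copy elsewhere cannot be told apart from those of the genes described.

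The members started between 15106807 and 24994126, and the nearest genes outside that passed the same filter started at 14933585 and 25172483. The second-highest level of a member was never below 0.523 FPKM, while the highest such value among the 69 genes under the filter was 0.496 FPKM. Of those 69 genes, 35 were listed at 0 in all 28 libraries and 8 reached 0.5 FPKM in 1 library. Of the members, 64 were at 0.5 FPKM or more in every library and 14 in only 2 or 3 of them. Mean levels over all plants ran from 0.0469 to 286 FPKM, with 85 members at 1 FPKM or more and 38 at 10 FPKM or more.

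Most members differed by less than 1 between carriers and controls, on the log2 scale given next. A small number differed strongly, mainly in 3 places of the stretch. The difference is the average over the 7 carrier group means less the control mean, after taking log2(FPKM + 0.5), a scale on which the change of a weakly expressed gene comes out too small. It was smaller than 0.5 in size in 59 members, smaller than 1 in 95, between 1 and 2 in 10 and larger than 2 in 13. Of those 13 members, 10 were higher in carriers and 3 lower. Over all 24515 genes tested, 2.67% were past 2, 1.82% upwards and 0.857% downwards. These genes, used as the background throughout, include some that are not A-chromosome genes. Among the 24041 A-chromosome genes outside the stretch, 329 were past 2 upwards and 207 downwards, or 2.23% in all. The median size of difference was 0.50 in members and 0.33 over all genes, and the median difference itself was 0.06 in members and -0.01 over all genes.

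**Figure D1:**
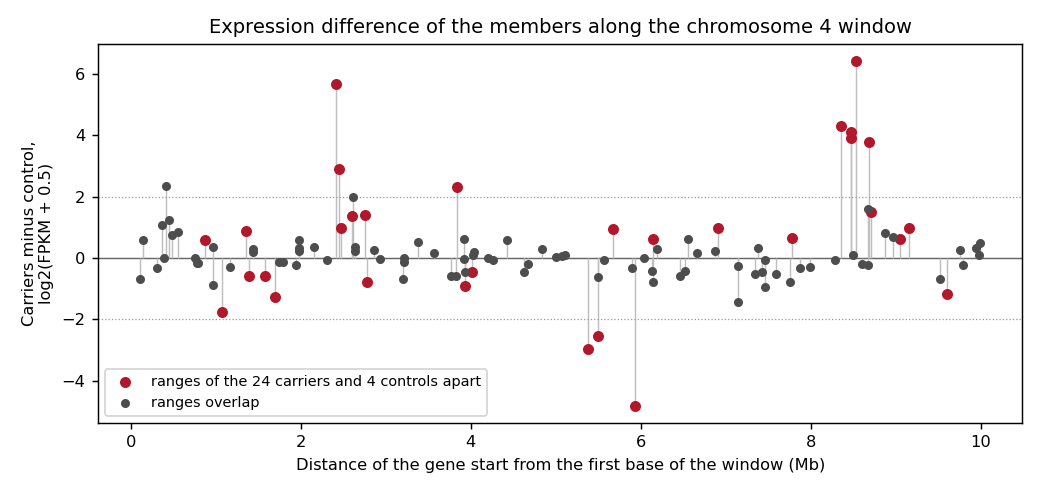
Difference between carriers and controls on the log2(FPKM + 0.5) scale (vertical axis) for each of the 118 members, against the distance of the gene start from the first base of the stretch in Mb. Dotted lines mark 2 and -2, red points are members whose carrier and control ranges do not overlap, and the 13 members past the lines sit mainly in 3 groups.

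By limma over all genes, 65 members passed an adjusted p of 0.05 for B presence (55.1%), against a background of 47.0%, with 37 higher (background 23.2%) and 28 lower (background 23.7%) in carriers. Nothing is read from these counts, since the stretch was chosen on this contrast. Scaling by spike-in totals put the median difference of all genes at 0.23 and gave 40 members higher and 9 lower, against 6160 and 1810 of all genes. Carrier and control ranges did not overlap in 31 members (26.3%, background 16.6%), 20 with carriers higher (16.9%, background 9.48%) and 11 with carriers lower (9.32%, background 7.16%).

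Zm00004b020529 (chromosome 4, 17410129 to 17410907) is a short gene that was among the most strongly expressed members in carriers and low in controls. Its level was 111 FPKM in the lowest carrier, 191 FPKM in the median carrier and 285 FPKM in the highest, against 2.13, 3.05, 3.84 and 3.42 FPKM in the 4 controls. The lowest carrier stood far above the highest control. Carriers averaged 189 ± 44.8 FPKM (SD, n = 24) and controls 3.11 ± 0.730 FPKM (SD, n = 4), a mean ratio of 61.0. By copy number its mean was lowest in the 6B plants, at 166 FPKM, and highest in the 3B plants, at 221 FPKM. The member before it, starting at 17305074, differed by -0.05.

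Zm00004b020638 (23526708 to 23527696) was listed at 0 in all 4 controls. In carriers it ran from 14.97 through a median of 43.8 to 79.7 FPKM, so no carrier was near 0. Its neighbouring members on either side, starting at 23491030 and 23604242, differed by 0.09 and -0.18 and averaged 0.485 and 0.111 FPKM over all plants.

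Zm00004b020593 (20926565 to 20928404) showed the opposite pattern. It lay between 0 and 0.925 FPKM in carriers, with a median of 0.520 FPKM and 1 plant listed at 0, against 24.6, 21.3, 34.4 and 23.6 FPKM in the controls. Carriers averaged 0.473 ± 0.251 FPKM (SD, n = 24) and controls 25.97 ± 5.77 FPKM (SD, n = 4), a control mean 54.96 times that of carriers. The next member, Zm00004b020594 (21041177 to 21048147), had the highest mean level of the stretch. It was at 259.6, 285 and 323 FPKM in the lowest, median and highest carrier, against 289.6, 249.5, 296 and 306 FPKM in controls, so the groups overlapped.

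Zm00004b020582 (20377761 to 20379285) had the next most negative difference, -2.96. It was at 0 in 7 of the 24 carriers, with a median of 0.267 and a highest value of 1.62 FPKM, against 5.43, 17.7, 4.97 and 2.24 FPKM in controls. The controls themselves were spread widely, and the difference was -2.45 without Control replicate 2. The authors' deposited table marks the genes Zm00004b020529, Zm00004b020593 and Zm00004b020638 as significant at 7 of 7 copy numbers and Zm00004b020582 at 6.

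**Figure D2:**
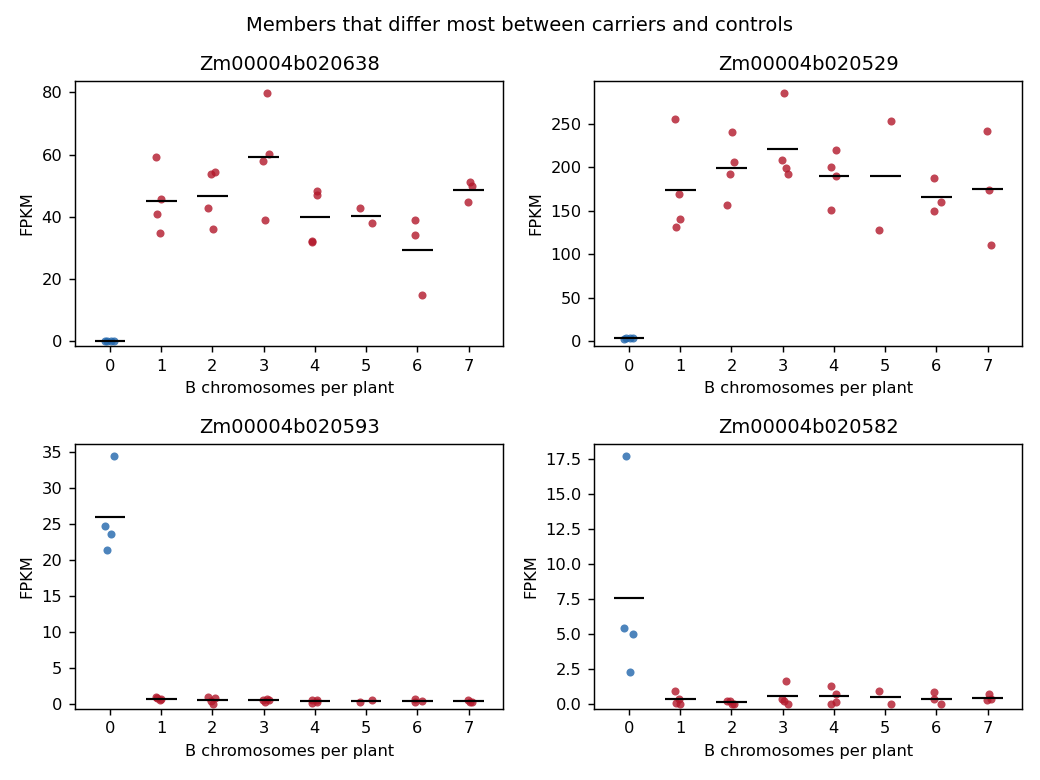
FPKM (vertical axis, linear, from 0) by number of B chromosomes for the pair of members with the largest positive and the pair with the largest negative difference, with 1 point per plant and a bar at each group mean (blue for the 4 controls at 0 copies, red for carriers). In all 4 genes the step lies between 0 copies and 1 copy.

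The 3 strongly lower members lay together, within the bin from 20 to 21 Mb. The third, at 20500023 to 20501561, ran from 0 to 1.40 FPKM in carriers with a median of 0.419 FPKM, against 4.38, 9.73, 4.56 and 2.07 FPKM in controls. Its carrier and control ranges did not overlap. Just before it, a member starting at 20494595 was listed at 0 in all 24 carriers, against 0.637, 0, 0.676 and 0 FPKM in controls, which is too low for a comparison. Between it and Zm00004b020593 lay 3 members with smaller differences. The gene at 20567322 differed by -0.05 and the gene at 20893766 by -0.31. The gene at 20668180 differed by 0.96, with 27.8 ± 3.48 FPKM in carriers (n = 24) and 14.05 ± 1.33 FPKM in controls (n = 4).

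The densest group of higher members lay between 23 and 24 Mb. That bin held 13 members, of which 5 were past 2 upwards (background 1.82%). By limma, 8 were called higher (background 23.2%) and 0 lower (background 23.7%), counts from which nothing is read. The median size of difference in the bin was 1.52, the largest of the 10 bins. The 5 genes spanned 323 kb, from 23359546 to 23682066, in which 15 genes were annotated and 9 were members. The first (23359546 to 23361097) ran from 18.4 through 26.02 to 36.3 FPKM in carriers, against 1.31, 0.643, 0.858 and 0.903 FPKM in controls. The second (23471444 to 23472533) ran from 6.07 through 12.1 to 15.99 FPKM in carriers, against 0.159, 2.02, 0 and 0 FPKM in controls. In each of the pair the lowest carrier was above the highest control.

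The third (23474865 to 23476334) starts 2331 bases after the end of the second. It ran from 5.19 through 11.1 to 28.3 FPKM in carriers, against 0, 0, 0 and 0.826 FPKM in controls. The fifth (23680551 to 23682066), after Zm00004b020638, ran from 6.91 through 8.83 to 11.9 FPKM in carriers, against 0.219, 0.174, 0.349 and 0 FPKM in controls. Carriers and controls did not overlap in either gene, and the carrier mean of the fifth was 47.7 times the control mean. The authors' deposited table marks the third and the fifth as significant at 0 of 7 copy numbers, and the first and the second at all 7. The authors tested 84 to 86 of the 118 members at each copy number. Whether the third and the fifth were among them was not looked at, so 0 can also stand for not tested.

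Not all members in between differed. Of the 4 others, the one at 23676914 was listed at 0 in all controls and had a median of 1.09 FPKM in carriers, and the remaining 3 reached at most 1.09 FPKM in any plant, with overlapping ranges. The next member beyond the fifth gene, at 23704265, ran from 2.57 through 4.81 to 11.6 FPKM in carriers. Controls had 1.505, 1.51, 1.01 and 1.56 FPKM, with ranges apart.

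**Figure D3:**
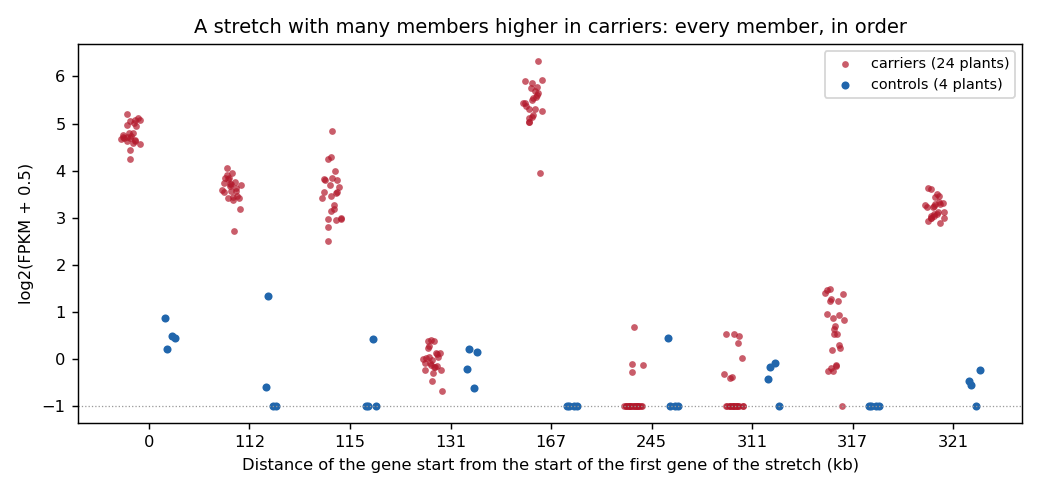
Level on the log2(FPKM + 0.5) scale (vertical axis) of the 9 members from the first to the last strongly higher gene between 23 and 24 Mb, in order, with the distance of each gene start from the first one in kb on the horizontal axis. Red points are the 24 carriers, blue points to their right the 4 controls, and the dotted line marks 0 FPKM. In 5 of the 9 genes all carriers lie above all controls by a wide margin.

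Another group lay between 17 and 18 Mb, where 3 of 13 members were past 2 upwards (background 1.82%). These 3 were Zm00004b020529, Zm00004b020530, described with dosage, and a gene at 17618210 to 17618627. Ranges were apart in 6 of the 13 members (background 16.6%, either direction), among them the gene at 17775251, which was lower in carriers. The gene at 17618210 was low, at 0 to 6.33 FPKM in carriers with a median of 3.06 FPKM, against 0.950, 0, 1.01 and 0 FPKM in controls, and its ranges overlapped. The gene at 17602507 to 17604847 was smaller in difference but apart, at 1.93 to 4.26 FPKM in carriers with a median of 2.60 FPKM, against 0.480, 0.765, 0.714 and 0.944 FPKM in controls. The remaining strongly higher members lay singly. The gene at 18837547 to 18839079 ran from 7.05 through 10.8 to 16.9 FPKM in carriers, against 1.89, 3.16, 1.00 and 1.35 FPKM in controls. In the 1 Mb bins from 16 to 17, 19 to 20, 21 to 22, 22 to 23 and 24 to 25 Mb, 0 members were past 2.

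Strongly changed members were short. The 13 genes past 2 spanned 418 to 1968 bases with a median of 1516 bases, against a median of 3318 bases in the other 105 members, counted from first to last base with introns. The same held over the whole set of A-chromosome genes, where the 549 genes past 2 had a median span of 1838 bases and the others one of 3830.5 bases. The levels of these 13 members summed to 253, 321 and 433 FPKM in the lowest, median and highest carrier. Controls had 41.4, 60.8, 51.3 and 34.97 FPKM. Since the 13 were picked by their difference, a gap between these sums follows from the choice. Zm00004b020529 alone averaged 189 FPKM in carriers. The other 105 members together summed to 1563, 1642 and 1854 FPKM in the lowest, median and highest carrier. Controls had 1566, 1530, 1553 and 1625 FPKM. These sums overlapped, but the median carrier was above every control, a difference that was not tested.

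Most strongly expressed members differed modestly, as did most members of any level. Of the 38 members at 10 FPKM or more, 32 differed by less than 1, against 95 of all 118 members. Zm00004b020563 (19019214 to 19026108) averaged 96.97 ± 8.76 FPKM in carriers (n = 24) and 132 ± 9.61 FPKM in controls (n = 4), with ranges apart. Zm00004b020596 (21140131 to 21144523) averaged 93.3 ± 6.98 FPKM in carriers (n = 24) and 60.2 ± 2.64 FPKM in controls (n = 4), also apart. Zm00004b020547 (18208017 to 18211334) was at 31.9, 42.4 and 54.3 FPKM in the lowest, median and highest carrier, against 40.2, 46.6, 40.7 and 39.8 FPKM in controls, and differed by 0.01.

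The neighbouring 10 Mb on either side gave different counts of strong differences. From 5 to 15 Mb, 0 of 97 genes were past 2 upwards and 2 downwards, or 2.06%. From 25 to 35 Mb, 8 of 116 genes were past 2 upwards and 1 downwards, or 7.76%, and the largest of these differences, 3.46, was in a gene starting at 33573512. Over the rest of chromosome 4 the share was 2.23% of 2425 genes. Cut into 10 Mb pieces with the same edges, the A chromosomes gave 188 windows with at least 50 genes tested, a median share of 1.9% and an upper quartile of 3.03%. The stretch from 15 to 25 Mb had the highest share of them, which describes how the stretch was picked and is not a test of it.

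The comparisons of single copy numbers share the 4 control plants and are not independent, and they belong to the contrast on which the stretch was chosen, so their counts are a description from which nothing is read. By limma, 56 members were called for 1B plants, against a background of 35.3%. For 2B plants 52 were called (background 33.7%), for 3B plants 49 (background 32.8%) and for 4B plants 57 (background 39.2%). For 5B plants 43 were called (background 29.7%), for 6B plants 48 (background 38.3%) and for 7B plants 53 (background 35.9%). In 1B plants 33 of them were higher (background 17.9%) and 23 lower (background 17.4%). In 6B plants 31 were higher (background 19.8%) and 17 lower (background 18.6%), and in 7B plants 33 were higher (background 18.8%) and 20 lower (background 17.1%). The gene starting at 23359546 averaged 24.3 ± 2.17 FPKM in 1B plants (SD, n = 4), 33.9 ± 2.70 FPKM in 6B plants (n = 3) and 28.96 ± 4.84 FPKM in 7B plants (n = 3).

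Whether members change with the number of B chromosomes was tested among the 24 carriers alone, as a slope per added copy on the log2(FPKM + 0.5) scale, a comparison that leaves the controls out. Few members were called, at about the rate of all genes. A slope that was not called does not show that the member stays level. Of the 110 members that passed the filter within carriers, limma called 2 as rising (background 2.28%) and 1 as falling (background 0.912%). That was 2.73% in all, against a background of 3.19% of 24019 genes. Of these, 23562 were A-chromosome genes outside the stretch, and the background also holds genes that are not A-chromosome genes. The share called among A-chromosome genes alone was not worked out. An unadjusted limma p under 0.05 was found in 18 of the 110 members (16.4%, background 19.1%). The median slope was -0.0018 per copy in members and 0.0023 over all genes, and 52 of the 110 slopes were positive.

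Zm00004b020530 (17450214 to 17452181), which lies 39306 bases beyond Zm00004b020529, was the member with the clearest relation to copy number. It was listed at 0 in all 4 controls. The 1B plants had 1.504, 0.513, 0.731 and 1.03 FPKM, the 2B plants 3.01, 1.48, 3.22 and 0.885, the 3B plants 2.76, 3.92, 2.53 and 4.56, and the 4B plants 3.61, 4.79, 4.59 and 2.67 FPKM. The 5B plants had 3.94 and 4.34 FPKM, the 6B plants 4.04, 5.76 and 4.80, and the 7B plants 6.47, 6.86 and 7.27 FPKM. All 7B plants were above all plants with fewer copies, and all 1B plants were below all plants with 3 or more copies, while 1B and 2B plants overlapped. The slope was 0.35 ± 0.04 per copy (SE; limma adjusted p = 2.3e-06).

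Zm00004b020559 (18916003 to 18917527) rose with copy number. Controls had 18.7, 16.8, 22.7 and 19.4 FPKM. The 1B plants averaged 23.9 ± 5.96 FPKM (SD, n = 4), the 2B plants 27.7 ± 3.96 FPKM (n = 4) and the 3B plants 21.8 ± 1.66 FPKM (n = 4). The 4B plants averaged 35.3 ± 5.31 FPKM (n = 4), the 5B plants 34.9 ± 4.55 FPKM (n = 2), the 6B plants 37.4 ± 4.53 FPKM (n = 3) and the 7B plants 35.7 ± 3.40 FPKM (n = 3). Each mean from 4 copies on was above each mean up to 3 copies. The slope was 0.12 ± 0.03 per copy (limma adjusted p = 0.011), and with spike-in scaling 0.12 with a limma adjusted p of 0.348. For 7B minus 1B the limma adjusted p was 0.0882, and over 1B to 4B it was 0.676. Zm00004b020650 (24047101 to 24053263) fell, with 62.4 ± 13.2 FPKM in 1B plants (n = 4) and 43.4 ± 5.29 FPKM in 7B plants (n = 3), a slope of -0.09 ± 0.02 (limma adjusted p = 0.0362). This call ended with spike-in scaling (adjusted p = 0.619) and when 1 of 6 plants was left out (1B replicate 2 or 3, 2B replicate 4, 6B replicate 1 or 2, or 7B replicate 1), with a limma adjusted p of 0.0519 to 0.0827. It also ended without the mean-variance trend (0.0513), for 7B minus 1B (0.282) and over 1B to 4B (0.723), as limma adjusted p. The slope itself was -0.09 with spike-in scaling and without the trend, -0.08 for 7B minus 1B and -0.11 over 1B to 4B. Controls had 30.2, 32.6, 34.7 and 31.1 FPKM for this gene, below every carrier.

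**Figure D4:**
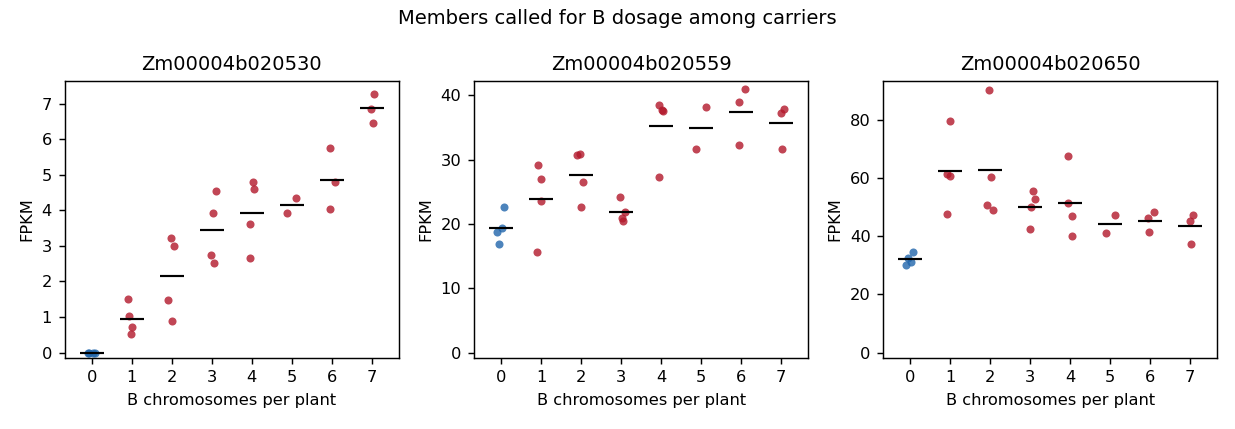
FPKM (vertical axis, linear, from 0) by number of B chromosomes for the 3 members called for dosage among carriers, with 1 point per plant and a bar at each group mean (blue for the 4 controls, red for carriers). Zm00004b020530 climbs from the 1B to the 7B plants, Zm00004b020559 is higher from 4 copies on, and Zm00004b020650 is highest in 1B and 2B.

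Of the 13 strongly changed members, Zm00004b020530 alone was called for dosage. The slope was -0.03 ± 0.03 per copy in Zm00004b020529, -0.06 ± 0.04 in Zm00004b020638, -0.07 ± 0.04 in Zm00004b020593 and 0.06 ± 0.06 in Zm00004b020582. The 95% interval of the slope in Zm00004b020529 ran from -0.0955 to 0.0447, and in Zm00004b020638 from -0.146 to 0.0302, so slopes as steep as that of Zm00004b020530 lie outside both. Over the 12 others the limma adjusted p lay between 0.0815 and 0.995, and the lowest belonged to the first gene of the dense group, with a slope of 0.06 ± 0.02. In the F test over the 7 carrier groups, which does not assume a straight line, limma called 2 of 110 members (1.82%, background 1.5%), Zm00004b020530 (adjusted p = 2.5e-04) and Zm00004b020559 (adjusted p = 0.0267). The call of Zm00004b020559 in the F test ended without 1B replicate 3, 3B replicate 2, 3 or 4, 6B replicate 2 or 3, or 7B replicate 2 or 3, each left out alone, with a limma adjusted p of 0.0516 to 0.0657. It also ended with spike-in scaling (limma adjusted p = 0.648) and without the mean-variance trend (limma adjusted p = 0.0533).

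Some members varied widely between plants of one group. The SD of log2(FPKM + 0.5) within carrier groups had a median of 0.32 in members and 0.26 over all genes. It was highest in Zm00004b020491 (15482967 to 15515652), at 1.30, and in Zm00004b020489 (15413843 to 15414368), at 1.23, larger than in 99.2% and 98.99% of all genes tested. Without 3B replicate 4, listed at 0, the SD of Zm00004b020489 was 0.805. Zm00004b020491 had 56.2, 10.8, 12.9 and 17.9 FPKM in the 4 plants of 1B, 17.1, 4.57, 37.2 and 1.29 FPKM in those of 3B, and 15.1 and 0.865 FPKM in those of 5B, against 2.87, 3.24, 3.31 and 5.14 FPKM in controls. The carriers lay on both sides of the controls. Zm00004b020489 had 43.8, 3.87, 15.5 and 14.8 FPKM in 1B and 14.6, 4.48, 20.03 and 0 FPKM in 3B, against 0.317, 3.03, 0.337 and 0.566 FPKM in controls. In both genes 1B replicate 1 was the highest of all plants and 3B replicate 3 the next, and 3B replicate 4 was among the lowest carriers. The member between them, starting at 15443715, had 0.993 FPKM in 1B replicate 1 and was listed at 0 in all controls.

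**Figure D5:**
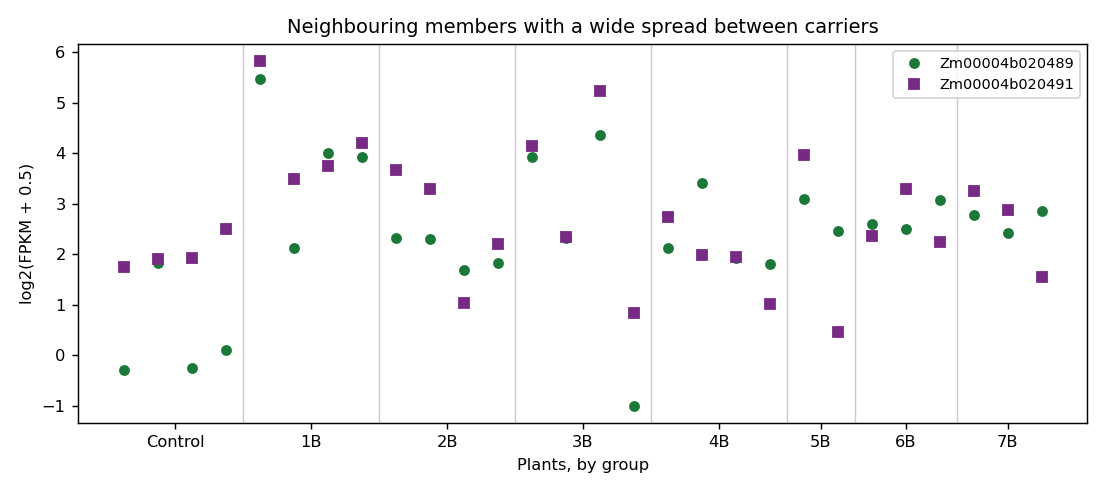
Level on the log2(FPKM + 0.5) scale (vertical axis) of Zm00004b020489 (circles) and Zm00004b020491 (squares) in each of the 28 plants, ordered by group and separated by grey lines. The highest points of both genes are in 1B replicate 1, and both spread widely within 1B and 3B.

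The next widest members were Zm00004b020620 (22462649 to 22463008), with an SD of 1.07 and 0, 7.52 and 17.3 FPKM in the lowest, median and highest carrier, against 9.44, 11.3, 12.5 and 25.3 FPKM in controls, and Zm00004b020597 (21145510 to 21145840), with an SD of 0.98 and 0, 4.33 and 14.9 FPKM in carriers, against 7.07, 8.76, 6.68 and 5.62 FPKM in controls. They span 360 and 331 bases, and the groups overlapped in both. Without 2B replicate 4, listed at 0, the SD of Zm00004b020620 was 0.741. For Zm00004b020597 the SD was 0.848 or more with any 1 carrier left out. By contrast, Zm00004b020594 had an SD of 0.066, smaller than in all but 0.0791% of genes.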

How the data were processed

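RNA-seq libraries of 28 plants were used. The gene table holds FPKM values which, per the file's values, the authors had scaled between libraries. The submitters' processing notes name TopHat2, Bowtie2, Cuffdiff, edgeR and cutadapt 1.16 without saying what each did. ERCC spike-ins were deposited as raw read counts. Gene positions and the authors' own comparisons (log2 fold changes, p-values and q-values, from Cuffdiff per the file headers) come from the authors' deposited table.

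Genes that reached 0.5 FPKM in 2 or more libraries were tested with limma 3.58.1 in R 4.3.3 (mean-variance trend) on log2(FPKM + 0.5), over all genes, with Benjamini-Hochberg adjustment and a threshold of 0.05. B presence contrasts the average of 7 carrier group means with control in a fit of 8 groups; dosage and the F test use the 24 carriers with the same filter. The fits were tested on simulated data. Spike-in scaling multiplied FPKM by relative depth over the spike-in total.

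The members, named genes and tests were chosen with earlier results of these data known. Genes were named by level, by size of difference, slope or spread, and as neighbours. The labels call plants of a group biological replicates. No libraries were identical. Replicate numbers did not pair plants. Transposable elements carry no positions and 0 of 98 miRNA loci lie in the stretch, so neither was used here; the planned tests of transposable elements were not run. Cell type markers were not run, since 0 of 41064 identifiers matched the reference gene table.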

Additional observations from a re-analysis of the deposited data

Results flagged for a closer look

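In the 22 genes described by name or as strongly changed, 108 groups of 4 plants were searched for 1 plant far from the other 3, and 13 were found. For normally distributed values chance gives about 1 in 20 groups, but FPKM need not be so distributed. Where 3 plants share a value, the remaining plant was always found if it differed. Some of these genes were also named for their spread or size of difference, so the count is not read against that rate. Zm00004b020489 stood at 3.03 FPKM in Control replicate 2 (others at most 0.566) and at 10.1 FPKM in 4B replicate 2 (others at most 3.88). Zm00004b020491 stood at 56.2 FPKM in 1B replicate 1 (others at most 17.9). Zm00004b020529 had 285 FPKM in 3B replicate 2 (others at most 208), Zm00004b020547 had 46.6 FPKM in Control replicate 2 (others at most 40.7), and Zm00004b020620 had 13.4 FPKM in 3B replicate 2 (others at most 4.23). Low plants were 4B replicate 1 for Zm00004b020559, at 27.3 FPKM (others at least 37.6), 3B replicate 4 for Zm00004b020597, at 1.41 FPKM (others at least 7.03), and 1B replicate 3 for the gene at 23359546, at 21.06 FPKM (others at least 25.2).

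In the gene at 23471444, Control replicate 2 had 2.02 FPKM (others at most 0.159). In the gene at 23474865, Control replicate 4 had 0.826 FPKM where the others were listed at 0, 1B replicate 2 had 19.0 FPKM (others at most 13.9) and 2B replicate 4 had 28.3 FPKM (others at most 12.4). The carrier groups differed from each other, by the limma F test, in Zm00004b020530 (adjusted p = 2.5e-04) and Zm00004b020559 (adjusted p = 0.0267), with values by group given with dosage above. For Zm00004b020559 the limma adjusted p was 0.648 with spike-in scaling and 0.0533 without the mean-variance trend, and the call was lost in 8 of 24 fits that left out 1 plant.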

How the results depend on the processing

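The count of 65 members called for B presence stayed between 56 and 67 when any 1 plant was left out, and that of all genes between 10036 and 11848, against 11514. Of these 65 members, 64 kept their direction under spike-in scaling. The share of called members that were higher was 56.9%, and 81.6% with spike-in scaling, against 49.5% and 77.3% of called genes overall. Dosage calls were 3 members and 767 genes; they were 1 and 264 with spike-in scaling, 1 and 288 for 7B minus 1B, and 1 and 145 over 1B to 4B. Leaving out 1 plant gave 2 to 4 members and 457 to 1113 genes, the lowest gene count without 1B replicate 1. F test calls were 2 members and 361 genes, 1 and 198 with spike-in scaling, 1 member without the mean-variance trend, and 1 to 3 members and 247 to 646 genes with 1 plant left out. The cause was not tested. The F test adjusted p of Zm00004b020559 was 0.0516 to 0.0657 in the 8 of 24 cases where it lost its call. The log2 difference of Zm00004b020638 was 8.73 with a pseudocount of 0.1 FPKM and 5.44 with 1 FPKM, so folds against levels near 0 depend on it. The replicate numbers did not pair plants (median correlation of deviations 0.0022 over 87 pairs, 9 over 0.1; 8 of 28 plants correlated best with their own number), and the replicate block gave 66 members for presence (11365 genes), 2 for dosage (668 genes; adjusted p of Zm00004b020650 0.0597) and 2 for the F test (305 genes). FPKM without read totals limits what can be said of members under 1 FPKM.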
